A study of Arabidopsis thaliana with 6 samples.

Results

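Aldehyde dehydrogenases oxidize aldehydes, which are reactive and can damage proteins and membranes, to carboxylic acids with NAD or NADP as the acceptor. In plants the family is divided by sequence into numbered groups with different substrates and compartments. Some members take part in the breakdown of amino acids, some in the making of phenolic acids, and some are known for their rise in drought and salt stress, when lipid peroxidation yields aldehydes. The genes described here are the 8 probe sets, of 22746 tested, whose platform annotation lists a single gene with a symbol of ALDH followed by a number. Each stands for a different gene. The TAIR10.1 gene table has 14 genes with such a symbol, so 6 (ALDH2B4, ALDH2B7, ALDH3H1, ALDH3I1, ALDH5F1 and ALDH12A1) were not analysed here.

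Levels were measured on Affymetrix 3' expression arrays in vegetative leaves of Arabidopsis thaliana, ecotype labelled Colombia, at an age of 5 weeks. The 3 groups were control leaves (from plants that were not wounded), local leaves (the wounded leaves, clamped over the midvein with tweezers) and systemic leaves (other leaves of wounded plants, themselves intact). Local and systemic leaves were taken 10 min after wounding, and 3 rosette leaves were wounded per plant. Control leaves came from other plants, so a rise or fall below is a difference between sets of plants, not a change followed over time. Each group had 2 arrays, called biological replicates in the labels, and each array came from a pool of leaves of 3 plants. No mutant, transgene or chemical is named in the labels.

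Values are log2 expression levels made by the authors with RMA, which sets the arrays to a common distribution, so that a change of all transcripts alike would not be seen. Across probe sets the arrays of a pair correlated at r = 0.995 to 0.997, and the number of arrays limits the precision. Both measured leaf genes, LHCB4.1 of the light-harvesting antenna and RCA, the activase of Rubisco, stood between 14.2 and 14.61 on every array, among 11 genes of that marker list. A listed gene is called measured here where a probe set lists it alone. The array may hold others, since 8730 probe sets list no gene. RNA integrity was read from the ubiquitin probe sets, where the 3' end exceeded the 5' end by 0.97 and 1.05 on local arrays. On the others it did so by 1.23 to 1.33, highest on control replicate 1. The same difference for GAPDH was 1.09 and 0.97 on control, 1.28 and 1.03 on local, and 1.503 and 1.08 on systemic arrays. For actin it was 3.51 to 3.97. Ubiquitin and actin were both highest on control replicate 1 and GAPDH on systemic replicate 1, so the 3 did not order the arrays alike. Their part in the results below was not tested. In whole leaves, fewer cells of a type and less RNA per cell cannot be told apart.

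Of the 8 ALDH genes, the sinapate-forming ALDH2C4 rose and the catabolic ALDH6B2 and the stress-related ALDH7B4 fell in local leaves, and the same 3 passed in the same directions in systemic leaves. The other 5 genes did not pass in either comparison. In local against control leaves 3 of 8 is 37.5%, where 23.6% of all probe sets passed (9.92% higher and 13.7% lower). In systemic against control leaves 37.5% stood beside 8.4% of all probe sets (4.73% higher and 3.67% lower). The arrays of local and control leaves did not overlap for 5 of the 8, beside 59.3% of all probe sets, and those of systemic and control leaves for 6 of the 8, beside 50.7%. Both comparisons share the control arrays, so their results are not independent of each other. The median difference over the 8 genes was -0.15 in local and -0.09 in systemic leaves, beside -0.04 and -0.02 over all probe sets. Calls are from limma, with a Benjamini-Hochberg adjusted p under 0.05 over all probe sets.

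**Figure D1:**
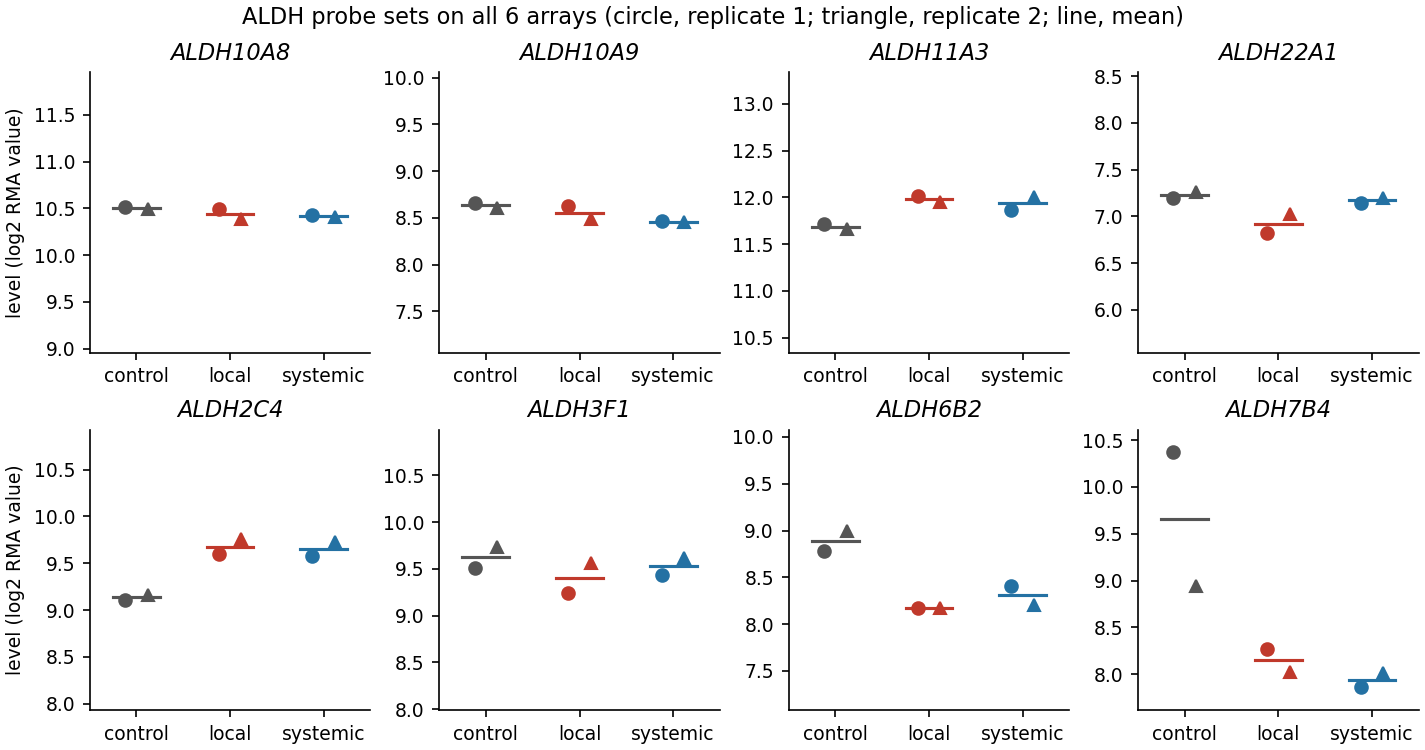
Level of each ALDH probe set (y axis, log2 RMA value, each panel spanning 3 log2 units) on the 2 arrays of the control, local and systemic groups (x axis), with circles for replicate 1, triangles for replicate 2 and lines for the group means. ALDH2C4 stands higher and ALDH6B2 lower on all arrays of wounded plants, and ALDH7B4 differs widely between the 2 control arrays, at 10.37 and 8.95.

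ALDH7B4 (AT1G54100) encodes a cytosolic enzyme related to antiquitin, the mammalian enzyme of lysine breakdown, and is known in Arabidopsis for its induction by drought, salt and abscisic acid. Its level was 10.37 and 8.95 on the control arrays, 8.27 and 8.02 on the local arrays, and 7.86 and 8.02 on the systemic arrays. All 4 arrays of wounded plants lay below both control arrays, but the control arrays were farther apart from each other than control replicate 2 was from any array of a wounded plant. The control mean was 9.66 ± 1.01 and the local mean 8.15 ± 0.18 (SD, n = 2 each). It fell in local leaves, with a difference of -1.51 ± 0.38 (SE, limma adjusted p = 0.0229), or 2.85-fold. In systemic leaves the mean was 7.94 ± 0.11, and the level fell by 1.72 ± 0.38 (adjusted p = 0.0302), or 3.29-fold. Against control replicate 1 the single arrays of wounded plants were lower by values from -2.10 to -2.51, and against control replicate 2 by values from -0.67 to -1.09.

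The gap of 1.42 between the control arrays placed ALDH7B4 among the 51 probe sets, 0.224% of 22746, with a gap at least that wide, and control replicate 1 was the higher array in 49 of them. The median gap over all probe sets was 0.12. Among the other ALDH genes the control arrays differed by 0.03 to 0.22, and control replicate 1 was not the higher array throughout, since ALDH22A1, ALDH2C4, ALDH3F1 and ALDH6B2 were higher on control replicate 2. The size of the ALDH7B4 difference thus moved with the control array used. Without control replicate 1 it was -0.80 in local and -1.01 in systemic leaves, and without control replicate 2 it was -2.22 and -2.43. In these limma fits a lone control array carries no control spread, so they cannot weigh the gap, and no p-value is given. The direction was the same with every array left out in turn. The local call was lost when local replicate 1 or 2 was left out (adjusted p = 0.0806 and 0.107) and with robust variance moderation (0.102). The systemic call was lost when any 1 local array was left out or only the 4 arrays compared were fitted (0.0538 each), when systemic replicate 1 or 2 was left out (0.152 and 0.101), and with robust moderation (0.131).

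**Figure D2:**
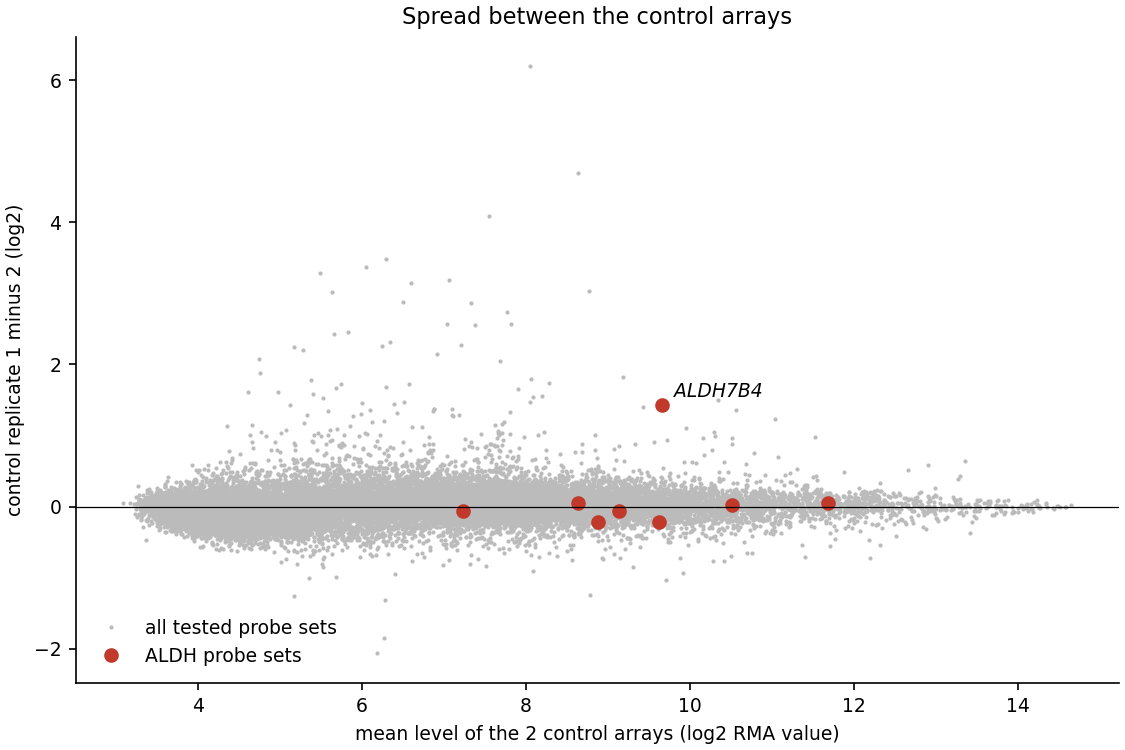
Control replicate 1 minus control replicate 2 (y axis, log2) against the mean level of the 2 control arrays (x axis, log2 RMA value) for all 22746 tested probe sets in grey and the 8 ALDH probe sets in red. ALDH7B4 lies at 1.42, and the other 7 ALDH probe sets lie between -0.22 and 0.05.

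The probe sets most like ALDH7B4 over the 6 arrays were sought by Pearson correlation among 1029 with a single listed gene and a span of at least 1 log2 unit. They were those of AT1G07040 (r = 0.99), AT2G37750 (r = 0.99), AT3G21790 (r = 0.99), AT1G62500 (r = 0.99) and CML41 (r = 0.99), a calmodulin-like protein. The 6 arrays form 3 groups, so these values describe a shared pattern only. All 5 were higher on control replicate 1 than on replicate 2, a trait favoured by choosing them by correlation with ALDH7B4. Each gap was narrower than that of ALDH7B4. Levels on control replicates 1 and 2 were 7.79 and 6.87 for AT1G07040, 5.90 and 5.17 for AT2G37750, 6.57 and 6.03 for AT3G21790, 5.85 and 4.94 for AT1G62500, and 6.43 and 5.29 for CML41. Their differences from control, from -0.65 for AT3G21790 to -1.16 for AT1G62500 in local leaves and from -0.79 for AT3G21790 to -1.31 for AT1G62500 in systemic leaves, were smaller than those of ALDH7B4. They moved with the control arrays too. Without control replicate 1 the local differences were -0.57 for AT1G07040, -0.47 for AT2G37750, -0.38 for AT3G21790, -0.70 for AT1G62500 and -0.43 for CML41, and without control replicate 2 they were -1.48, -1.20, -0.92, -1.61 and -1.57 in the same order. In systemic leaves they were -0.79, -0.45, -0.52, -0.86 and -0.41 without control replicate 1, and -1.70, -1.18, -1.06, -1.77 and -1.55 without control replicate 2. CML41 did not pass in either comparison (limma adjusted p = 0.0507 and 0.102), and AT2G37750 did not pass in systemic leaves (0.0533).

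**Figure D3:**
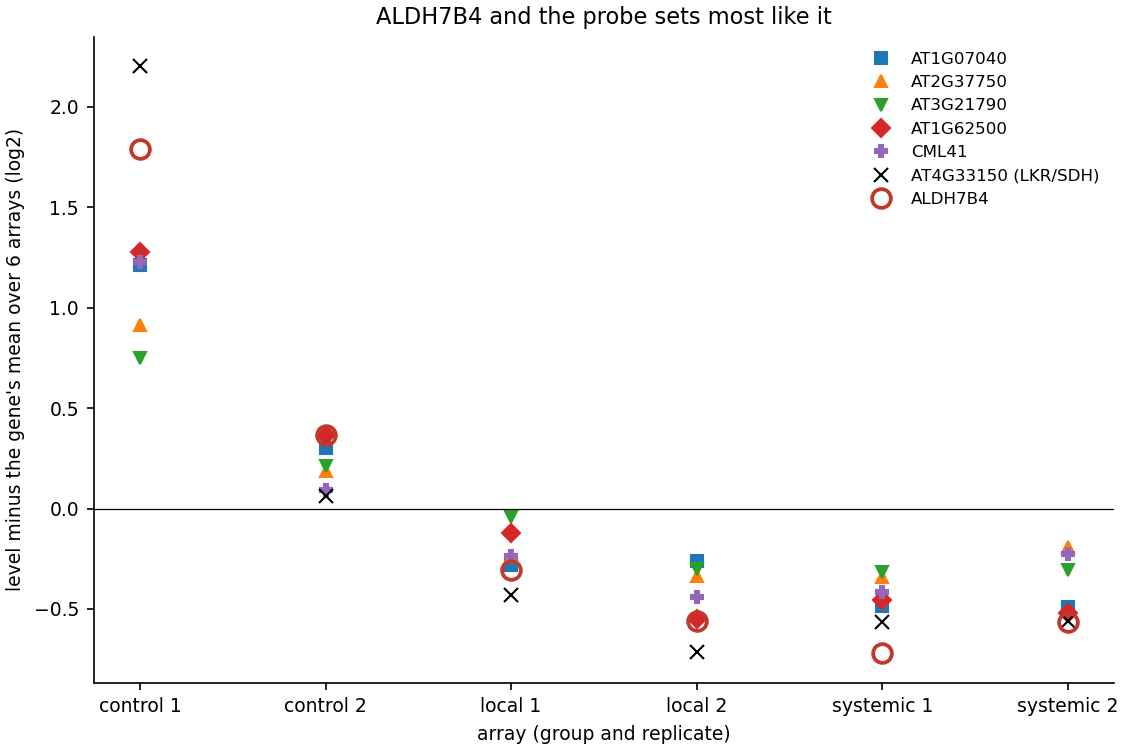
Level minus the mean over the 6 arrays of the same gene (y axis, log2) on each array (x axis) for ALDH7B4, the 5 probe sets with the highest Pearson r to it, and AT4G33150, the lysine catabolism gene. Every gene is highest on control replicate 1, next highest on control replicate 2, and lower on the 4 arrays of wounded plants.

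ALDH6B2 (AT2G14170) encodes methylmalonate-semialdehyde dehydrogenase, a mitochondrial enzyme of valine breakdown. Its level was 8.78 and 8.99 on the control arrays, 8.17 and 8.17 on the local arrays, and 8.41 and 8.21 on the systemic arrays. No array of a wounded plant reached the lower control array. Its mean was 8.88 ± 0.15 in control and 8.17 ± 0.0013 in local leaves (SD, n = 2 each). It fell in local leaves, with a difference of -0.71 ± 0.11 (SE, limma adjusted p = 0.00336), or 1.64-fold. In systemic leaves, at 8.31 ± 0.14, it fell by 0.57 ± 0.11 (adjusted p = 0.0201), or 1.49-fold. The local call held under all 15 alternatives, with differences from -0.82 to -0.61, while the systemic call was lost without control replicate 2 (-0.47, adjusted p = 0.0866) and without systemic replicate 2 (-0.48, adjusted p = 0.111).

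Other genes of the list that holds ALDH6B2, which spans the breakdown of several amino acids, also fell. The list of branched-chain amino acid and lysine catabolism had 16 genes, of which 9 were measured beside ALDH6B2. The list was chosen with earlier results of these data known, so its counts only describe these data. In local leaves 5 of the 9 fell and 1 rose, with a median of -0.52 against -0.04 over all probe sets, 13.7% of which fell and 9.92% rose. In systemic leaves 3 of the 9 fell and none rose, with a median of -0.44 against -0.02, beside 3.67% lower and 4.73% higher among all probe sets. The local count was 3 lower and none higher without either local replicate, and the systemic count was 1 without systemic replicate 1.

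The genes that fell encode enzymes of leucine breakdown and the electron carriers that serve them. MCCA, the biotin-bearing subunit of methylcrotonyl-CoA carboxylase, stood at 8.01 and 8.14 in control, 6.56 and 6.68 in local, and 7.37 and 7.06 in systemic leaves, so that no groups overlapped. It fell by 1.46 ± 0.12 in local leaves (SE, limma adjusted p = 0.000159) and by 0.86 ± 0.12 in systemic leaves (adjusted p = 0.00566). It was also lower in local than in systemic leaves, by -0.59 ± 0.12 (adjusted p = 0.0242), which did not pass when local replicate 1, local replicate 2 or systemic replicate 1 was left out (adjusted p = 0.172, 0.0626 and 0.108). MCCB, the other subunit of that enzyme, fell by 0.54 ± 0.12 in local leaves (adjusted p = 0.0117) and differed by -0.34 in systemic leaves (adjusted p = 0.13).

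IVD, the isovaleryl-CoA dehydrogenase upstream of that carboxylase, stood at 7.52 and 7.26 in control, 6.88 and 6.86 in local, and 6.70 and 6.72 in systemic leaves. It fell by 0.52 ± 0.11 and by 0.68 ± 0.11 (limma adjusted p = 0.0113 and 0.00933). ETFBETA, a subunit of the electron transfer flavoprotein that takes electrons from IVD, fell by 0.75 ± 0.09 in local and by 0.44 ± 0.09 in systemic leaves (adjusted p = 0.000818 and 0.0219). ETFQO, which passes those electrons on to ubiquinone, fell by 0.49 ± 0.10 in local leaves (adjusted p = 0.00997) and differed by -0.22 in systemic leaves (adjusted p = 0.253). Of the members that passed nowhere, named here after their values were seen, the partner subunit ETFALPHA differed by -0.31 and -0.36 (adjusted p = 0.177 and 0.185) and D2HGDH, a hydroxyglutarate dehydrogenase that feeds the same carriers, by -0.03 and -0.06. Leaving out single arrays ended the local calls of MCCB without control replicate 1 or local replicate 1 (adjusted p = 0.0535 and 0.0727), of IVD without control replicate 1 or local replicate 1 or 2 (0.0527, 0.0609 and 0.0577), and of ETFQO without local replicate 2 (0.0632), and the systemic calls of IVD without systemic replicate 1 (0.0607) and of ETFBETA without any 1 of the control or systemic arrays (0.0696 to 0.131).

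The member that rose in local leaves, BCAT4, is an aminotransferase known for methionine chain elongation in glucosinolate synthesis rather than for catabolism. It was higher by 0.72 ± 0.22 in local leaves (limma adjusted p = 0.0483) and differed by -0.67 ± 0.22 in systemic leaves (adjusted p = 0.113). The systemic difference of BCAT4 was -0.32 without systemic replicate 1 and -1.03 without systemic replicate 2. BCAT4 was higher in local than in systemic leaves by 1.40 ± 0.22 (adjusted p = 0.00839). Its local call was lost without any 1 of the control or local arrays (adjusted p = 0.053 to 0.207) or with robust moderation (0.0603), and the last call without local replicate 1 (adjusted p = 0.0687). AT4G33150, the bifunctional enzyme LKR/SDH that starts lysine breakdown, is named here after its values were seen. It stood at 7.98 and 5.84 on the control arrays, 5.35 and 5.06 on the local arrays, and 5.21 and 5.22 on the systemic arrays. Its control gap of 2.14 was wider than that of ALDH7B4, with control replicate 1 the higher array in both, and its differences of -1.70 and -1.69 did not pass (adjusted p = 0.0604 and 0.112). They were -0.63 and -0.62 without control replicate 1, and -2.77 and -2.76 without control replicate 2.

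**Figure D4:**
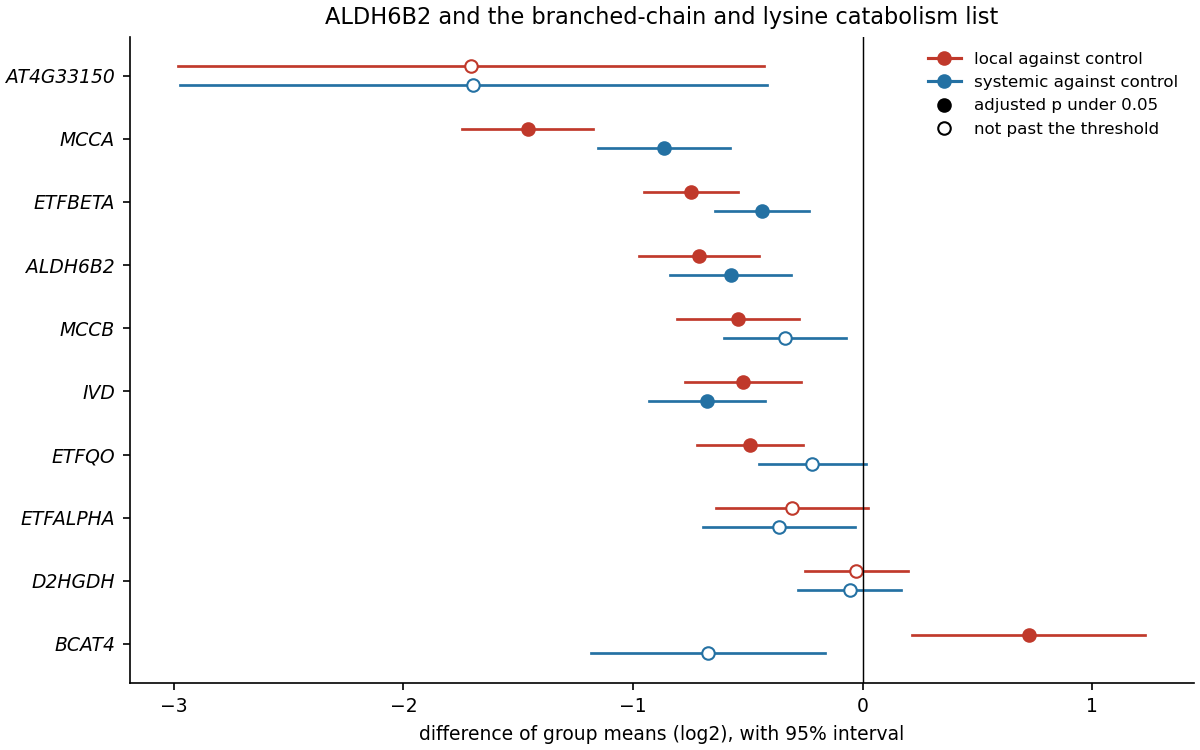
Differences of group means with 95% intervals (x axis, log2) for local against control in red and systemic against control in blue, for ALDH6B2 and the 9 other measured genes of branched-chain amino acid and lysine catabolism (y axis), filled where the adjusted p is under 0.05. MCCA, ETFBETA, ALDH6B2 and IVD passed in both comparisons, and AT4G33150 has the widest intervals.

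ALDH2C4 (AT3G24503), also known as REF1, encodes the enzyme that oxidizes sinapaldehyde and coniferaldehyde to sinapate and ferulate, precursors of the leaf's ultraviolet-absorbing esters. Its level was 9.10 and 9.17 on the control arrays, 9.59 and 9.75 on the local arrays, and 9.58 and 9.73 on the systemic arrays. Every array of a wounded plant was above both control arrays, and local and systemic arrays overlapped. Its mean was 9.14 ± 0.04 in control and 9.67 ± 0.11 in local leaves (SD, n = 2 each). It rose in local leaves, with a difference of 0.54 ± 0.10 (SE, limma adjusted p = 0.00761), or 1.45-fold. In systemic leaves, at 9.65 ± 0.10, it rose by 0.52 ± 0.10 (adjusted p = 0.0211), or 1.43-fold. The local call was lost without local replicate 2 (0.46, adjusted p = 0.0509), and the systemic call without any 1 of the control or systemic arrays (differences of 0.44 to 0.59, adjusted p = 0.0584 to 0.115).

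Of 19 phenylpropanoid genes listed beside it, 2 were measured, and 1 of them rose in each comparison. In local and systemic leaves 9.92% and 4.73% of all probe sets rose. HCT, the hydroxycinnamoyltransferase at the branch towards lignin and sinapate, stood at 11.31 and 11.42 in control, 11.65 and 11.75 in local, and 11.70 and 11.85 in systemic leaves. It rose by 0.33 ± 0.10 in local and by 0.41 ± 0.10 in systemic leaves (limma adjusted p = 0.0495 and 0.0474), calls that were lost without any 1 of the 6 arrays in local leaves (adjusted p = 0.06 to 0.212) and likewise in systemic leaves (0.0736 to 0.215). The other, CCOAMT, a caffeoyl-CoA methyltransferase named after its values were seen, lay at 4.21 to 4.41 on all arrays, at or below the lower quartiles of the arrays (4.41 to 4.48), and the table gives no detection calls.

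ALDH11A3 (AT2G24270) encodes the non-phosphorylating glyceraldehyde-3-phosphate dehydrogenase, a cytosolic enzyme that yields NADPH from a sugar phosphate. Its level was 11.71 and 11.66 on the control arrays, 12.02 and 11.95 on the local arrays, and 11.87 and 12.004 on the systemic arrays. The arrays of wounded plants lay above both control arrays, by a difference of 0.30 ± 0.10 in local leaves (SE, limma adjusted p = 0.056) and of 0.25 ± 0.10 in systemic leaves (adjusted p = 0.166), neither of which passed. The local difference passed after median centring (0.34, adjusted p = 0.0405), after cyclic loess (0.35, adjusted p = 0.025), with trended moderation (adjusted p = 0.0243) and among the brighter probe sets only (adjusted p = 0.0357). GAPC2, a phosphorylating counterpart in the cytosol and the only measured gene of 7 in that list, differed by 0.02 in local and 0.19 in systemic leaves (adjusted p = 0.923 and 0.36).

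ALDH22A1 (AT3G66658), the sole member of a plant group of the family, stood at 7.20 and 7.26 in control, 6.82 and 7.02 in local, and 7.14 and 7.20 in systemic leaves. Both local arrays lay below all others, while the systemic and control arrays met at 7.20. The local difference of -0.31 ± 0.10 did not pass (limma adjusted p = 0.0663, or 0.0441 among the brighter probe sets only), nor did the systemic difference of -0.06 ± 0.10 (adjusted p = 0.812). ALDH3F1 (AT4G36250), a member of the group that oxidizes fatty aldehydes, stood at 9.51 and 9.73 in control, 9.25 and 9.56 in local, and 9.44 and 9.62 in systemic leaves. In every group replicate 2 was the higher array, the groups overlapped, and the differences were -0.22 ± 0.14 in local and -0.09 ± 0.14 in systemic leaves (adjusted p = 0.316 and 0.771).

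ALDH10A8 (AT1G74920) and ALDH10A9 (AT3G48170) are the 2 Arabidopsis relatives of the betaine aldehyde dehydrogenases, which in spinach form the osmolyte glycine betaine and in Arabidopsis are known to oxidize aminoaldehydes. ALDH10A8 stood at 10.52 and 10.49 in control, 10.50 and 10.39 in local, and 10.43 and 10.41 in systemic leaves. ALDH10A9 stood at 8.66 and 8.61 in control, 8.63 and 8.49 in local, and 8.47 and 8.46 in systemic leaves. These were the smallest local differences of the family. ALDH10A8 differed by -0.06 (95% interval -0.27 to 0.15) in local and -0.09 (-0.30 to 0.13) in systemic leaves, and ALDH10A9 by -0.08 (-0.30 to 0.14) and -0.17 (-0.39 to 0.05), so that falls of more than 0.39 lie outside them all. After cyclic loess the local differences of ALDH10A8 and ALDH10A9 were 0.0081 and 0.0074, on the other side of 0.

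Wounded and intact leaves of the wounded plants were then compared directly. None of the 8 ALDH genes passed in local against systemic leaves by limma, where 9.7% of all probe sets did, and 1 of them, ALDH22A1, had an unadjusted p under 0.05 (-0.25 ± 0.10, adjusted p = 0.193). ALDH7B4 differed by 0.21, with a 95% interval from -0.66 to 1.08, wide enough to include a difference of 1 log2 unit. The intervals of the other called genes were narrower, at -0.40 to 0.12 around -0.14 for ALDH6B2 and -0.22 to 0.26 around 0.02 for ALDH2C4. Local and systemic arrays did not overlap for ALDH7B4, ALDH6B2, ALDH22A1 and ALDH10A9, 4 of 8, where 53.4% of all probe sets did not overlap.

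**Figure D5:**
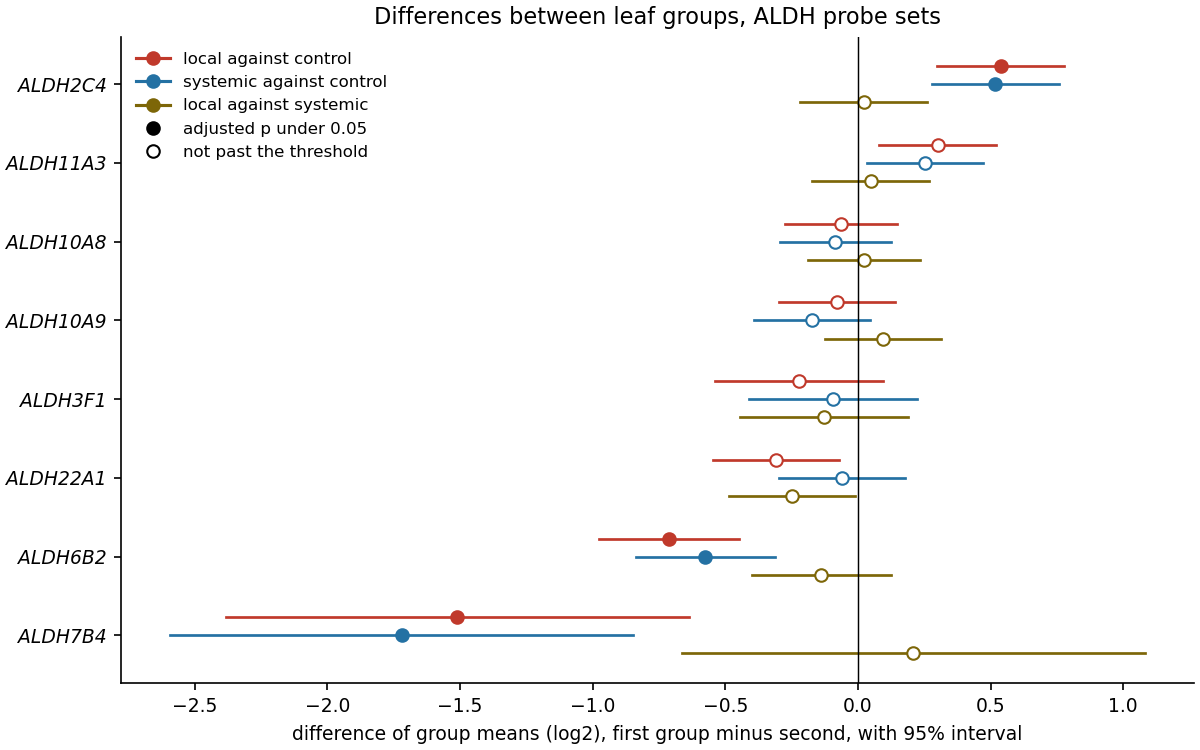
Differences of group means (x axis, log2, first group minus second) with 95% intervals for the 8 ALDH probe sets (y axis) in the 3 comparisons, filled where the adjusted p is under 0.05. ALDH2C4 is filled above 0 and ALDH6B2 and ALDH7B4 below 0 in both comparisons with control, and none is filled in local against systemic leaves.

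Further enzymes of aldehyde metabolism were measured in small numbers. Of 6 measured genes, out of 17, for carbonyl reductases and related detoxification, 1 rose in local leaves, where 9.92% of all probe sets rose. None passed in systemic leaves (limma, with none at an unadjusted p under 0.05), where 8.4% of all probe sets passed. The gene that rose was GLX2-5, a glyoxalase of methylglyoxal removal, at 8.62 and 8.45 in control, 9.04 and 8.81 in local, and 8.53 and 8.39 in systemic leaves. It was higher in local leaves by 0.39 ± 0.12 against control and by 0.46 ± 0.12 against systemic leaves (adjusted p = 0.0475 and 0.0473), calls that were lost with any 1 array other than local replicate 2 left out in the first case (0.0593 to 0.268), and with any 1 local or systemic array left out in the second (0.057 to 0.297). Of 3 measured genes, out of 17, that form or oxidize aldehydes by other routes, PDC2, a pyruvate decarboxylase, was higher in local than in systemic leaves by 0.62 ± 0.16 (adjusted p = 0.0484). In that comparison 9.7% of all probe sets passed. The PDC2 call was lost without any 1 of those 4 arrays. PDC2 differed from control by 0.47 in local and -0.15 in systemic leaves, and neither passed (adjusted p = 0.0693 and 0.666). The local difference was 0.73 without control replicate 1 and 0.21 without control replicate 2. AER, an alkenal reductase named after its values were seen, stood at 8.65 and 7.64 on the control arrays and at 7.61 to 7.93 on the others, so that control replicate 1 alone was high.

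Lists tied to ALDH7B4 by stress and to ALDH6B2 by energy supply had 3 measured genes each. Of the abscisic acid and dehydration list, 29 genes in all, the dehydrin COR47 rose by 0.60 ± 0.10 in local leaves (limma adjusted p = 0.00477) and differed by -0.24 in systemic leaves (adjusted p = 0.218), while COR15A and COR15B, named after their values were seen, did not pass in either. On the control arrays these 3 genes were 0.03 to 0.33 lower on replicate 1 than on replicate 2, the other way from ALDH7B4. LTI30, a dehydrin outside the list, was picked after its values were seen from the probe sets with a control gap at least that of ALDH7B4. It was 2.57 higher on control replicate 1, and the width of its gap follows from that choice. Whether the control gaps are tied to stress was not tested. All 3 measured genes of the sugar starvation list, 19 in all, fell in both comparisons, beside 13.7% and 3.67% of all probe sets, but MCCA and IVD are shared with the catabolism list. The other, AKINBETA1, a regulatory subunit of the SnRK1 energy-sensing kinase, fell by 0.97 ± 0.11 in local and by 0.64 ± 0.11 in systemic leaves (adjusted p = 0.000538 and 0.0101), the latter lost without systemic replicate 1 (0.0739). In the proline list, 1 of 9 genes was measured, DELTA-OAT, an ornithine aminotransferase, at -0.42 and -0.84 (adjusted p = 0.211 and 0.0526), and its control arrays stood at 8.17 and 7.49. Without control replicate 1 the differences of DELTA-OAT were -0.0794 and -0.49, and without control replicate 2 they were -0.77 and -1.18. No gene of the GABA shunt list was matched to a probe set that lists it alone, so none was analysed.

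Markers of other cell types were measured by 1 gene each, and some of them passed. Of all probe sets 23.6% passed in local and 8.4% in systemic leaves, and so few markers cannot be set against these shares. The dividing cell marker AUR1 fell by 0.89 in local and by 0.67 in systemic leaves, and the root-expressed PYK10 fell by 3.25 in local leaves and fell by 3.08 in systemic leaves. The phloem transporter SWEET11 rose by 0.79 in local leaves (limma adjusted p = 0.0106) and did not pass in systemic leaves (0.335). Neither FMA, of guard cells, nor TRY, of trichomes, passed in either comparison. No epidermis, xylem or flower marker was analysed, and the part of any cell type in the ALDH results was not tested.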

How the data were processed

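Leaf pools gave 6 µg of total RNA each for 3' amplification and 1 Affymetrix array, per the labels' protocols. Deposited values are log2 expression levels; RMA and Affymetrix Expression Console are the authors' tools per the submitters' processing notes, without versions. RMA sets arrays to one distribution and can compress differences of dim probe sets. Of 22810 probe sets, 64 controls were left out. Names from the platform annotation were updated with the TAIR10.1 gene table through Entrez numbers (13436) or locus tags (48) or kept (29), so 13513 probe sets had 1 gene, 503 several and 8730 none listed.

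A model with a mean per group was fitted to all 6 arrays in limma 3.58.1 (R 4.3.3), with two-sided tests, 3 residual and 4.85 prior degrees of freedom. On simulated data the fit was unbiased, and its recovery of known changes was clearly lower when the raw spread of these arrays was simulated than with the moderated spread. The ALDH genes and all lists were chosen with earlier results of these data known. Every ALDH gene was named, as were list members that passed in any comparison (otherwise the 2 brightest) and the 5 probe sets most like ALDH7B4. The marker FDH, a symbol now held by formate dehydrogenase, was dropped after the data were seen, and promoter motifs were planned but not used here. Alternatives comprised cyclic loess, centring on medians, leaving out dim probe sets, a replicate block, trended or robust moderation, only the 4 arrays compared, single-gene probe sets, and each array left out, where a lone array is assumed to vary like the other groups. Whether the pools were grown separately is not stated, so p-values measure the spread between these pools.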

Additional observations from a re-analysis of the deposited data

Results flagged for a closer look

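By limma, 5 genes of the pathway lists, none of them an ALDH, differed between local and systemic leaves (adjusted p = 0.00314 to 0.0484). Of all probe sets 9.7% passed in that comparison, so these 5 are only those found among the listed genes. PDC2 passed in neither comparison with control. Local leaves were lower in MCCA, by -0.59, and higher in BCAT4, by 1.40, in COR47, by 0.85, in PDC2, by 0.62, and in GLX2-5, by 0.46. None of the 8 ALDH genes passed in this fit, with 1 at an unadjusted p under 0.05. The calls other than that of COR47 were lost with single arrays left out.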

How the results depend on the processing

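With 2 arrays a group, leaving out arrays changed more calls than any rescaling. ALDH calls, 3 in each comparison with control, ranged from 1 to 3 in local and from 0 to 2 in systemic leaves with an array left out, and were 0 throughout in local against systemic leaves; fewer samples then enter the fit. Among the brighter probe sets only, where fewer are tested, 5 ALDH genes passed in local leaves. The catabolism list, tried after the data were seen, gave 6 calls in local, 3 in systemic and 2 in local against systemic leaves. Some fits with an array left out gave fewer. Over all probe sets the calls, 5374, 1911 and 2206, ranged from 2823 to 5040, 787 to 1581 and 558 to 2329, and were 2851, 1024 and 1237 with single-gene probe sets only. After cyclic loess 54.8% of the local calls were higher, against 42% as deposited, and 60.5% against 49.1% in local against systemic leaves.

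Same-numbered arrays deviated together by r = 0.14, 0.02 and 0.20 for the 3 pairs of groups, which did not establish a pairing, and no label gives one. With the replicate block 3, 3 and 0 ALDH genes passed and 5702, 2207 and 2546 probe sets in all, and 7, 4 and 2 genes of the catabolism list. Single differences that did not pass as reported but passed with the block were those of CML41 (adjusted p = 0.0343) and AT4G33150 (-1.70, 0.03) in local leaves, and of BCAT4 (-0.67, 0.0469), DELTA-OAT (-0.84, 0.0122) and AT2G37750 (-0.82, 0.0427) in systemic leaves.

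Differences that changed sign were small and did not pass in either setting. After cyclic loess they were 0.0081 for ALDH10A8 and 0.0074 for ALDH10A9 in local against control, and 0.0047 for AT2G37750, 0.0114 for CML41 and 0.0333 for AT4G33150 in local against systemic leaves. Median centring gave 0.0023, 0.0041 and 0.0135 for the last 3. With an array left out, local against systemic differences ranged from -0.0311 to 0.0753 for ALDH10A8, -0.0195 to 0.1151 for ALDH11A3, -0.0592 to 0.10 for ALDH2C4, -0.28 to 0.0292 for ALDH3F1, -0.0596 to 0.37 for AT1G62500, -0.10 to 0.0542 for AT2G37750, -0.15 to 0.133 for AT4G33150 and -0.12 to 0.0814 for CML41. Against control they ranged from -0.205 to 0.0163 for ALDH3F1, -0.16 to 0.0101 for GLX2-5 and -0.41 to 0.1059 for PDC2 in systemic leaves, and from -0.0515 to 0.10 for GAPC2 in local leaves. By Euclidean distance of group means 0 of the 5 probe sets most like ALDH7B4 were the same. Apart from the fits with fewer arrays or probe sets, the causes were not tested.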
